A study of Mus musculus with 4 samples.

Results

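The lysyl oxidase family of the mouse has 5 genes, Lox and Loxl1 to Loxl4, and all 5 were found by symbol, once each, among the 25965 genes measured in cultured aortic smooth muscle cells. The members were chosen by name and not by their values, though earlier results of these data were known when members, lists and tests were chosen. The cells came from the medial layer of aortas of healthy wild-type male mice (C57Bl/6, aged 8 to 14 weeks) and had been released with collagenase and elastase. They were then grown in DMEM with fetal calf serum for 3 to 5 passages. Polyadenylated RNA was sequenced in 4 libraries, numbered 1 to 4 here, which formed 1 group with no treated or freshly isolated counterpart. The labels do not say whether the libraries came from separate mice or cultures, so any p-value measures only the spread between these libraries, which may be technical.

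Lysyl oxidases are secreted copper enzymes that oxidise lysine and hydroxylysine side chains of collagens and elastin to aldehydes, which then condense into the covalent cross-links of the matrix. In the aortic wall this cross-linking turns soluble tropoelastin into elastic lamellae and stabilises collagen fibres. Mice without Lox die around birth with ruptured arteries, and mutations of human LOX cause thoracic aortic aneurysm. Loxl1 maintains elastic fibres in adult mice, Loxl2 is known for cross-linking the collagen IV of basement membranes, and loss of Loxl3 in mice causes cleft palate and spinal defects. The family shares a C-terminal catalytic domain, to which Loxl2, Loxl3 and Loxl4 add scavenger receptor cysteine-rich domains and Lox and Loxl1 add a propeptide.

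The copper-binding site of the catalytic domain is the stretch that marks a gene as a member, and it is shown here to make visible how far the coding sequences differ between paralogs. It was found once in the longest reading frame of each gene in the GENCODE M21 transcripts (GRCm38). The sequences below are 33 bases each, 5′ to 3′ on the coding strand, and the capitals mark the 4 histidine codons.
Loxl1: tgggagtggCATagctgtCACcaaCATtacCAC
Loxl2: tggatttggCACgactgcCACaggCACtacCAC
Loxl3: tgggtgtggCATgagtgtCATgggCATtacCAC
Loxl4: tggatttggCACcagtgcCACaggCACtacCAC

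An intron divided this site at the same base in all 5 genes, with 23 bases in the first exon and 10 in the next. For Loxl1 (minus strand) the parts lay in exons 3 and 4 of 7, at chr9:58294359-58294381 and chr9:58293720-58293729. For Loxl2 (plus strand) they lay in exons 10 and 11 of 14, at chr14:69682316-69682338 and chr14:69689028-69689037. For Loxl3 (plus strand) they lay in exons 10 and 11 of 14, at chr6:83049995-83050017 and chr6:83050116-83050125. For Loxl4 (minus strand) they lay in exons 11 and 12 of 15, at chr19:42599877-42599899 and chr19:42598807-42598816. In Lox (minus strand) the site, which is not printed, was in exons 3 and 4 of 7.

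The translated proteins had 411 residues for Lox, 607 for Loxl1, 776 for Loxl2, 754 for Loxl3 and 758 for Loxl4. Over the catalytic stretch, taken from 90 residues before the copper site to the end of the protein, identity ran from 48.8% for Loxl1 and Loxl2 to 77.0% for Lox and Loxl1. The other high values joined the members with scavenger receptor domains, at 68.6% for Loxl2 and Loxl3, 67.1% for Loxl2 and Loxl4 and 66.9% for Loxl3 and Loxl4. The longest run of bases that the transcripts of any pair shared exactly was 32, between Lox and Loxl1, and the shortest such maximum was 11. Read lengths were not among the sources, and whether reads were ever assigned to the wrong member was not tested.

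The 4 libraries held between 40342561 and 56793195 reads on genes, recovered from the deposited log2 values as described under the processing. The deposited scale did not centre the libraries on each other. The median gene stood 0.34, 0.11, -0.28 and -0.10 log2 units from its own average in libraries 1 to 4, a spread of 0.62. Values are therefore given as deposited and, where the libraries are compared, also after median-ratio scaling, which removes this shift. The libraries also differed in cell type markers. The summed linear level of 8 smooth muscle markers was 7927, 3640, 11571 and 16289 in libraries 1 to 4, and that of 7 fibroblast markers was 1060, 943, 216 and 178. Of 7 endothelial markers 4 were detected, with sums of 65.0, 49.0, 69.1 and 25.0, and of 7 leukocyte markers 2 were detected, with sums of 41.0, 46.8, 15.6 and 21.1. The cartilage list, which holds Col2a1, had 6 of 8 detected, with sums of 15247, 8202, 18505 and 21587. Of all genes measured, 47.4% were detected. All these sums are on the deposited scale and mostly follow the highest genes of a list. Those were Acta2 and Tagln for smooth muscle and Col2a1 and Comp for cartilage. In bulk RNA, fewer cells of a type and less RNA per cell cannot be told apart.

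All 5 family genes were detected, meaning that no library gave a log2 value below 0. Of all genes measured, 47.4% met this rule. Divided by exon length, Lox was highest, Loxl3 and Loxl1 stood next and close together, Loxl4 was lower and Loxl2 lowest. The levels in log2 scaled reads per kilobase of exon averaged 9.12 ± 0.73 for Lox, 7.29 ± 0.43 for Loxl3 and 7.26 ± 0.13 for Loxl1, against 4.28 ± 0.47 for Loxl4 and 2.51 ± 0.55 for Loxl2 (SD, n = 4). The median of 12106 detected genes with a gene model was 2.93 on the same scale. Lox ranked 170th among them, Loxl3 668th, Loxl1 683rd, Loxl4 3660th and Loxl2 6892nd.

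**Figure D1:**
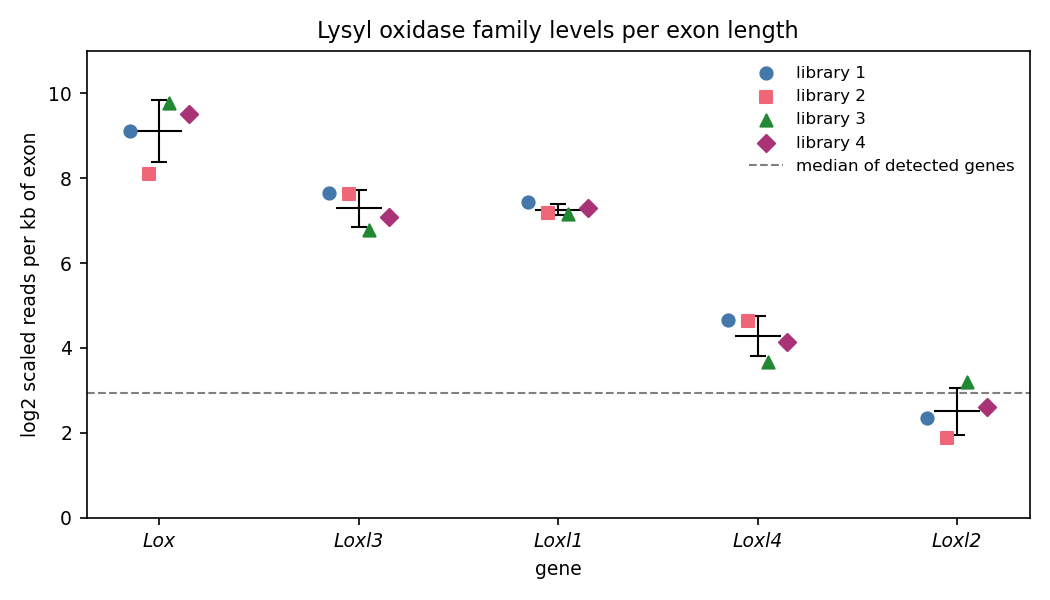
Level of each family gene in log2 scaled reads per kilobase of exon (y axis), with 1 symbol per library, the mean as a horizontal bar and the SD over 4 libraries as whiskers. Lox averaged 9.12 and Loxl2 2.51, Loxl3 and Loxl1 overlapped, and the dashed line is the median of detected genes at 2.93.

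Lox encodes the founding enzyme of the family, whose propeptide is removed after secretion (chromosome 18, 52516069 to 52529867, GRCm38, minus strand). It had 76587, 37931, 90945 and 103221 reads in libraries 1 to 4, and deposited log2 values of 11.36, 10.36, 12.01 and 11.78. Library 2 was the lowest, as for 13.2% of detected genes, and library 3 the highest, 3.15-fold apart, and the SD of 0.73 was above that of 82.9% of detected genes. After median-ratio scaling the values were 11.03, 10.24, 12.29 and 11.88, with the same lowest library (20.0% of detected genes on that scale) and highest library and a range of 4.14-fold.

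Loxl1, the elastic fibre member (chromosome 9, 58287723 to 58313212, minus strand), had 16508, 13680, 10309 and 15155 reads and deposited values of 9.15, 8.89, 8.87 and 9.01. As deposited these were the steadiest values of the family, with an SD of 0.13, and 4.95% of detected genes had a lower one. After scaling its SD was 0.20, level with that of Loxl3, and 17.7% of genes had a lower one. Its order over libraries depended on the scaling: the deposited value was highest in library 1, and the scaled values of 8.81, 8.77, 9.15 and 9.11 were higher in libraries 3 and 4.

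Loxl2, the collagen IV member (chromosome 14, 69609171 to 69695833, plus strand), had 801, 576, 1084 and 975 reads and deposited values of 4.78, 4.32, 5.62 and 5.05. Library 2 was again lowest and library 3 highest, 2.47-fold apart as deposited and 3.25-fold after scaling. With the fewest reads of the family, its counting error was still small, since the exact Poisson 95% interval of the 576 reads in library 2 was 529 to 626. Over all members and libraries such intervals were 0.02 to 0.24 log2 units wide, and they cover counting error only. They take each recovered read as a separate fragment and would be wider if fragments were counted more than once.

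Loxl3 (chromosome 6, 83034173 to 83052562, plus strand) had 27024, 26336, 11140 and 18263 reads and deposited values of 9.86, 9.83, 8.98 and 9.28. Library 3, the highest for Lox and Loxl2, was the lowest for Loxl3, as it was for 52.9% of detected genes as deposited and 29.1% after scaling. The range was 1.84-fold as deposited and 1.37-fold after scaling, when the values were 9.52, 9.72, 9.26 and 9.38. The 3′ end of Loxl3 overlaps Htra2, a mitochondrial protease gene on the opposite strand, over 535 exon bases or 11.6% of the Loxl3 exon length. Htra2 had values of 7.29, 7.22, 6.78 and 6.69, and no source states whether the counting used strand, so reads of the overlap cannot be assigned to one of the genes.

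Loxl4, another member with scavenger receptor domains (chromosome 19, 42593982 to 42612813, minus strand), had 3107, 3021, 1185 and 2202 reads and deposited values of 6.74, 6.71, 5.75 and 6.23. Its pattern resembled that of Loxl3, with libraries 1 and 2 highest and library 3 lowest, 1.98-fold apart as deposited and 1.48-fold after scaling. The scaled values were 6.40, 6.59, 6.03 and 6.33.

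Between genes within a library, the 10 pairs of members were compared per exon length by flipping the signs of the 4 within-library differences in every way (an exact permutation test, two-sided), with Benjamini-Hochberg adjustment over the 10 pairs. Of these, 9 pairs had the same order in 4 of 4 libraries. For each of the 9 the exact permutation test gave p = 0.13 (adjusted 0.139), the lowest value it can reach with 4 libraries, so no pair could pass 0.05. Lox exceeded Loxl3 by 1.84 ± 1.11 log2 units (3.57-fold) and Loxl1 by 1.86 ± 0.73 (3.64-fold). Lox exceeded Loxl4 by 4.84 ± 1.13 (28.6-fold) and Loxl2 by 6.61 ± 0.30 (97.8-fold). Loxl4 exceeded Loxl2 by 1.77 ± 0.99, with single differences of 2.32, 2.75, 0.49 and 1.53.

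Loxl3 and Loxl1 were the neighbours in the order that did not differ beyond their spread. Their per-length difference was 0.23, 0.46, -0.37 and -0.21 in libraries 1 to 4, a mean of 0.03 ± 0.39 in favour of Loxl3 (exact permutation p = 0.875, adjusted 0.875). The mean changed sign when library 1 (-0.04) or library 2 (-0.12) was left out. The difference also depended on the length used, at 0.20 by longest transcript or by coding length (exact permutation p = 0.5 for either). The gap between Lox and Loxl3 varied widely, with Lox 1.39-fold above Loxl3 in library 2 and 7.86-fold above it in library 3. In library 3 Loxl1 was the nearer of them to Lox, which exceeded it 6.09-fold.

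The make-up of the family differed accordingly between libraries. Lox held 57.7%, 42.6%, 75.9% and 70.0% of the family's summed scaled reads per kilobase in libraries 1 to 4, a mean of 61.6 ± 14.7%. Loxl3 held 21.1%, 30.7%, 9.66% and 12.9%, and Loxl1 18.0%, 22.3%, 12.5% and 14.9%. In library 2 the shares of Lox and Loxl3 lay nearest to each other, and in library 3 farthest apart. Loxl4 held between 1.12% and 3.85%, and Loxl2 between 0.533% and 0.800%.

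**Figure D2:**
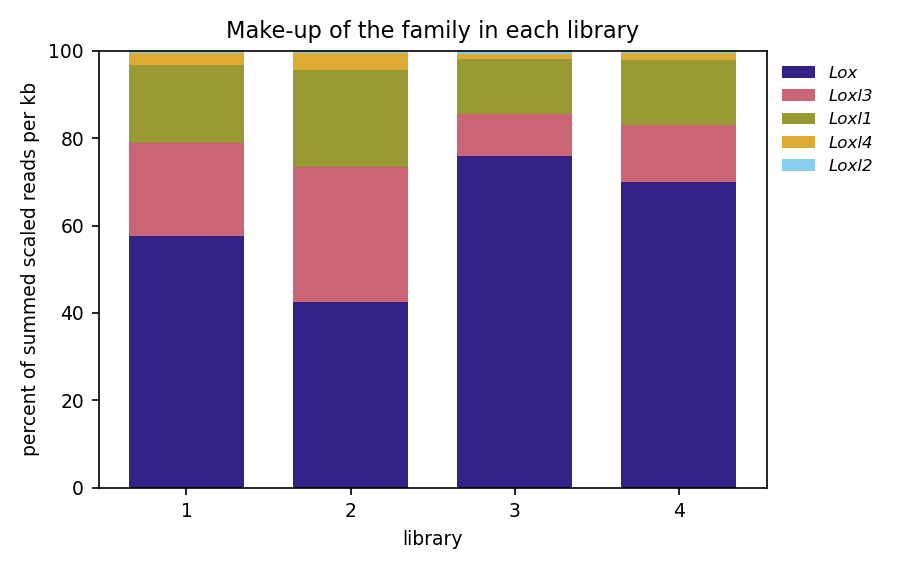
Share of each gene in the family's summed scaled reads per kilobase of exon (y axis, percent) in each library (x axis). Lox filled 42.6% of the bar in library 2 and 75.9% in library 3, while Loxl3 filled 30.7% and 9.66%.

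Across libraries, 2 of the 5 members, Lox and Loxl2, had an SD above 0.5 log2 units. Of all detected genes 40.5% did so, and 30.7% after median-ratio scaling, when the same 2 members were above the limit with SDs of 0.91 and 0.77. A share of 2 in 5 is near the background, so the count says nothing particular to the family. On the deposited scale the count also rested on single libraries. Without library 2 no member passed (SD 0.33 for Lox and 0.43 for Loxl2), beside 43.8% of detected genes. Without library 3 Lox alone did (0.73, against 0.37 for Loxl2), beside 34.6% of detected genes. The scaled values were not examined in this way. Scaling left the SDs of Loxl1, Loxl3 and Loxl4 at 0.20, 0.20 and 0.23, below the median SD of 0.37 over detected genes.

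In libraries 2 and 3, Lox and Loxl2 deviated in one direction and Loxl3 and Loxl4 in the other. After median-ratio scaling, Lox stood -0.34, -1.12, 0.93 and 0.52 log2 units from its own mean in libraries 1 to 4, and Loxl2 -0.48, -0.72, 0.98 and 0.23. Loxl3 stood 0.05, 0.25, -0.21 and -0.09 from its mean, and Loxl4 0.06, 0.25, -0.31 and -0.01. Loxl1 stood -0.15, -0.19, 0.19 and 0.15 from its mean, with the signs of Lox and a spread as small as that of Loxl3. The directions of Lox, Loxl2, Loxl3 and Loxl4 in libraries 2 and 3 were the same on the deposited scale, whereas Loxl1 stood at -0.11 in library 3 there. The within-library difference of Loxl3 and Loxl4 was nearly constant, at 2.99, 3.00, 3.11 and 2.92 log2 units (mean 3.00 ± 0.07), whereas that of Lox and Loxl3 had an SD of 1.11.

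**Figure D3:**
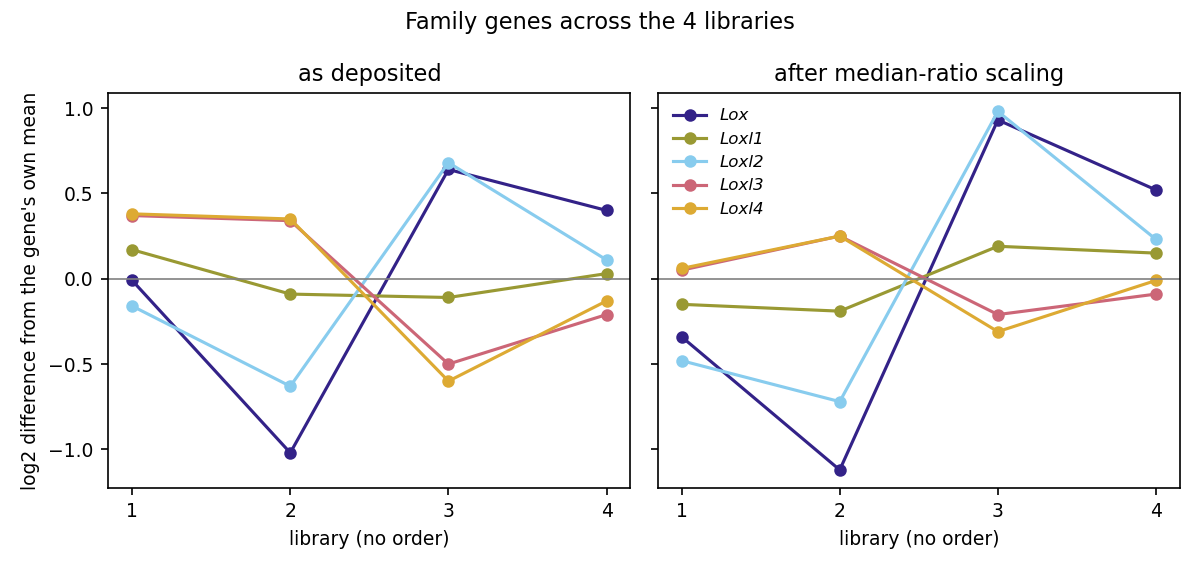
Log2 difference of each family gene from its own mean (y axis) in the 4 libraries (x axis, lines only join values of a gene), as deposited (left) and after median-ratio scaling (right). Lox and Loxl2 were lowest in library 2 and highest in library 3 on both scales, Loxl3 and Loxl4 were lowest in library 3, and Loxl1 stayed within 0.19 of its mean.

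Likeness of 2 genes was measured as the root mean square difference of their values after each gene's mean was subtracted, over 4 libraries, and is a description only. It was 0.0647 log2 units for Loxl3 and Loxl4, and 109 of 10921 other named genes (0.998%) were nearer to Loxl3 than Loxl4 was. It was 0.256 for Lox and Loxl2, with 76 genes (0.696%) nearer to Lox than Loxl2 was. Between Lox and Loxl3 it was 0.959, and 70.7% of genes were nearer to Lox. The patterns of Loxl3 and Loxl4 were common ones, with 17.8% and 15.6% of genes within 0.2 of them, and so was that of Loxl1 with 18.0%, while 0.366% lay as near to Lox and 0.421% to Loxl2.

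The nearest genes to Lox were Synm, encoding the intermediate filament protein synemin (0.0357), Lysmd3 (0.0476) and Tmem184a (0.0703). Synm had values of 5.01, 3.93, 5.65 and 5.44, so that it was also lowest in library 2 and highest in library 3. The nearest to Loxl2 were Rhpn2 (0.0364), Lrrc17 (0.0618) and Il17rb (0.0657). Lysmd3 had only 127, 67, 148 and 179 reads in libraries 1 to 4, and Il17rb 37, 30, 52 and 49. Counting error at such read numbers is wider than their distances. The genes nearest to Loxl1 were Slc6a8, the creatine transporter gene (0.0196), Gstz1 (0.0206) and Zfp839 (0.0228). Rbbp5, a subunit of histone methyltransferase complexes (0.00517), Ttc12 (0.0116) and Stk38 (0.0146) were nearest to Loxl3, and Med22 of the Mediator complex (0.0136), Rabep2 (0.0139) and the glutaminyl-tRNA synthetase gene Qars (0.0141) to Loxl4. Leaving out a library replaced all 3 nearest genes of a member in several cases: Lox kept none of them without library 1, 2 or 3, and 2 without library 4.

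Genes that work with the family were described in 7 lists of 110 measured genes in all. The share of detected genes to set beside the counts in these lists is 47.4%, that over all genes measured. Among the listed genes, the gene nearest to both Lox (0.107) and Loxl2 (0.233) was Epas1, which encodes the hypoxia-inducible factor HIF-2alpha. Epas1 had values of 7.31, 6.23, 7.77 and 7.44. Among all genes it was 10th in likeness to Lox but 96th to Loxl2, outside the limit of 0.2. Loxl3 (0.0235) and Loxl4 (0.0484) were nearest to P4hb, encoding protein disulfide isomerase, which is also a subunit of the collagen prolyl 4-hydroxylase. P4hb was 6th in likeness to Loxl3 and 45th to Loxl4. Loxl1 was nearest to Plod1, a collagen lysyl hydroxylase gene (0.109), which was 419th in likeness among all genes.

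The substrates were abundant. All 16 elastin and collagen genes of the list were detected, with a median of 8.39 log2 scaled reads per kilobase against 2.93 over detected genes. Col1a1 averaged 11.30 ± 0.33 and Col1a2 9.51 ± 0.52, the chains of collagen I. The cartilage collagen gene Col2a1 averaged 10.39 ± 0.51. Eln, the elastin gene, averaged 10.78 ± 1.33, with single per-length values of 9.99, 9.33, 11.68 and 12.11. Eln was lowest in library 2, where Lox was lowest, and the 2 libraries with the highest Eln were those with the highest Lox. Without division by length, Eln exceeded Lox by 1.64, 1.99, 2.69 and 3.35 log2 units in libraries 1 to 4, so their ratio was not constant.

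Of the substrates, 10 of 16 had an SD above 0.5 as deposited (40.5% of detected genes) and 9 after scaling (30.7%). Their lowest library was library 2 for 9 of 16 genes as deposited, compared with 13.2% of detected genes, and for 9 after scaling, compared with 20.0%. Library 3 was the lowest for 6 of the 16 on either scale (52.9% of detected genes as deposited, 29.1% scaled). Col1a1 was among these 6, with deposited values of 14.22, 14.14, 13.52 and 14.16. The others were Col1a2, Col3a1, Col5a1, Col4a5 and Col4a6, named here to complete the 6.

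Of 23 genes for activation of the proenzymes and for the scaffold on which they act, 20 were detected, with a median of 5.35 per kilobase. Bmp1, the protease that removes the Lox propeptide, averaged 5.65 ± 0.40 per kilobase. Its relative Tll1 differed widely between libraries, with 5092, 5410, 284 and 804 reads, and Tll2 had at most 2 reads in a library. The highest genes were Thbs1 (10.06 ± 0.87) and Fn1 (9.99 ± 0.63), for the matrix glycoproteins thrombospondin-1 and fibronectin, and Efemp2 (9.50 ± 0.36), encoding the fibulin-4 that brings Lox to tropoelastin. Efemp2 had deposited values of 10.95, 11.50, 11.83 and 11.41, highest in library 3 as Lox was, but lowest in library 1. In this list 14 of 20 detected genes had an SD above 0.5 as deposited, and 13 after scaling (40.5% of detected genes as deposited, 30.7% scaled).

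Copper is loaded into the enzymes in the secretory pathway, and 12 of 13 copper supply genes were detected, with a median of 5.33 per kilobase. The chaperone gene Atox1 averaged 8.97 ± 0.33, the superoxide dismutase gene Sod1 7.87 ± 0.21 and the metallothionein gene Mt1 6.43 ± 0.38. The copper importer gene Slc31a1 averaged 2.88 ± 0.49 and its relative Slc31a2 3.69 ± 0.59. Library 3 was the lowest for 6 of the 12 as deposited (52.9% of detected genes) and for 3 after scaling (29.1%), and library 1 for 4 as deposited (16.3%) and 7 after scaling (34.1%). Of the 12 genes 2 had an SD above 0.5 as deposited, and 3 after scaling (40.5% of detected genes as deposited, 30.7% scaled). Atp7a, 1 of the 2 genes above that limit as deposited, encodes the pump that passes copper to secreted enzymes and was named after its values were seen. It had 504, 217, 30 and 193 reads and scaled values of 3.78, 2.79, 0.73 and 2.82. It was thus lowest in library 3, where Lox was highest, as 52.9% of detected genes were as deposited and 29.1% after scaling. Whether Atp7a bears on Lox was not tested.

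Of 17 genes for collagen lysine and proline modification and folding, 16 were detected, with a median of 6.35 per kilobase. The lysyl hydroxylases, which make the hydroxylysine that lysyl oxidases also oxidise, averaged 4.44 ± 0.21 for Plod1, 5.33 ± 0.92 for Plod2 and 7.27 ± 0.30 for Plod3. Plod2 stood out among them with 15950, 5731, 3039 and 4343 reads. The highest genes were P4hb (10.25 ± 0.43), the collagen chaperone gene Serpinh1 (9.86 ± 0.42) and the prolyl isomerase gene Fkbp10 (9.19 ± 0.12). An SD above 0.5 was seen for 3 of 16 genes as deposited and for 2 after scaling (40.5% of detected genes as deposited, 30.7% scaled).

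Of the 7 lists, other cross-linking enzymes and copper amine oxidases had the lowest median of detected genes, at 2.08 per kilobase. Of 12 measured genes 5 were detected, near the share of 47.4% over all genes measured, and 4 had no reads in any library. Tgm2, the tissue transglutaminase gene, was the highest at 6.64 ± 0.48, below Lox, Loxl3 and Loxl1 but above Loxl4 (4.28) and Loxl2 (2.51). The peroxidasin gene Pxdn, whose product cross-links collagen IV, averaged 2.83 ± 0.50, also above the mean of Loxl2, and Tgm4 averaged 2.08 ± 0.18. Tgm1 had 14, 16, 0 and 0 reads, and Tgm3 had none, where a count of 0 allows up to 3 reads in a library.

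All 19 upstream regulators were detected, with a median of 3.56 per kilobase. The transforming growth factor beta genes, ligands that induce Lox in many cells, averaged 3.54 ± 0.52 for Tgfb1, 4.48 ± 0.74 for Tgfb2 and 6.23 ± 0.74 for Tgfb3. Ctgf averaged 10.86 ± 0.58 and Srf, the serum response factor gene, 5.48 ± 0.82. Of the 19 genes 12 had an SD above 0.5 as deposited and 7 after scaling (40.5% of detected genes as deposited, 30.7% scaled), and the scaled count is near that share. Their lowest library was library 2 for 8 genes as deposited (13.2% of detected genes) and for 11 after scaling (20.0%). Library 3 was the lowest for 9 as deposited (52.9%) and for 5 after scaling (29.1%).

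All 10 hypoxia targets were detected, with a median of 3.57 per kilobase, and 5 had an SD above 0.5 on either scale (40.5% of detected genes as deposited, 30.7% scaled). Ldha averaged 9.22 ± 0.40, Pgk1 8.03 ± 0.50, Slc2a1 5.86 ± 0.89 and Vegfa 4.50 ± 0.21. The glucose transporter gene Slc2a1 had 3207, 3830, 8682 and 8738 reads, highest in libraries 3 and 4, while Pgk1 had deposited values of 9.45, 9.78, 8.70 and 8.87, highest in libraries 1 and 2. The list thus did not vary as one, and 2 of its 10 genes were lowest in library 2 on either scale (13.2% of detected genes as deposited, 20.0% scaled).

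**Figure D4:**
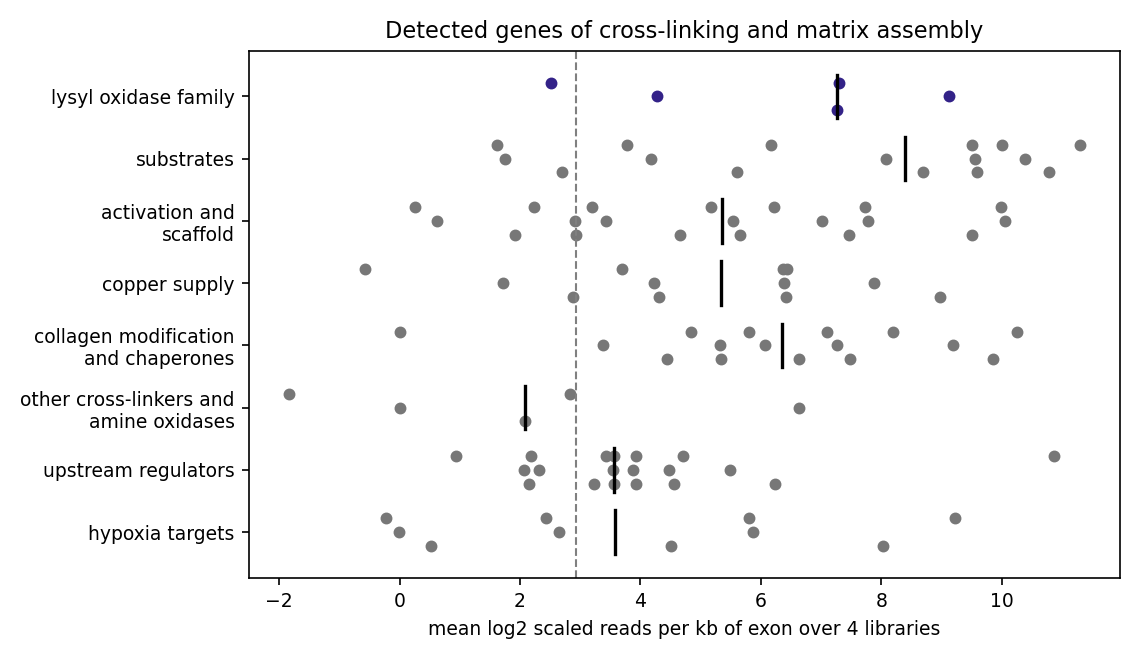
Mean level of each detected gene in log2 scaled reads per kilobase of exon over 4 libraries (x axis) for the family and 7 lists of genes (y axis), with list medians as black bars and the median of all detected genes (2.93) as a dashed line. The substrates had the highest median of the 7 lists (8.39), and the other cross-linking enzymes and amine oxidases the lowest (2.08).

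Most smooth muscle markers shared their lowest library with Lox and Loxl2, whereas no detected fibroblast marker did. Of 8 smooth muscle markers 7 were detected, and 6 of the 7 were lowest in library 2 on either scale (13.2% of detected genes as deposited, 20.0% scaled). Acta2 had values of 12.04, 10.76, 12.77 and 13.16, Cnn1 6.47, 5.36, 8.19 and 8.40, and Myh11 7.12, 5.33, 8.08 and 9.24. These contractile genes were highest in library 4, whereas Lox and Loxl2 were highest in library 3. Of 7 fibroblast markers 6 were detected, and all 6 were lowest in library 4 on either scale (17.5% of detected genes as deposited, 16.9% scaled). Dpt had values of 7.15, 7.02, 2.32 and 1.92, high in the libraries where Loxl3 and Loxl4 were highest as deposited. Of the 6 detected fibroblast markers Dpt varied most (SD 2.87) and Ly6a least (0.75). Loxl3 and Loxl4 ranged only 1.37-fold and 1.48-fold after scaling. Whether the make-up of the cultures plays a part in the levels of the family was not tested.

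**Figure D5:**
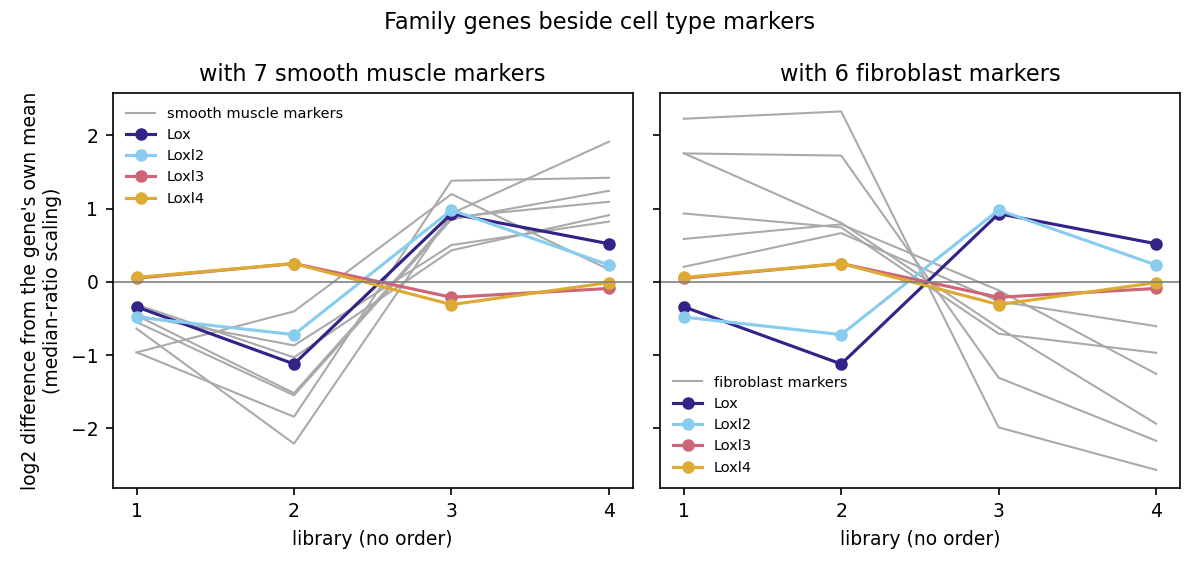
Log2 difference from each gene's own mean after median-ratio scaling (y axis) in the 4 libraries (x axis) for 4 family genes in colour and, in grey, 7 smooth muscle markers (left) or 6 fibroblast markers (right). Lox, at -1.12 in library 2, was low where 6 of 7 smooth muscle markers were lowest, and the fibroblast markers were lowest in library 4.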

How the data were processed

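The values, on a log2 scale, are those the authors deposited, for 25965 genes and 4 libraries. Per the labels' protocols, total RNA with integrity numbers of 7.8 to 9 was made into libraries with the TruSeq Stranded mRNA kit. The submitters' processing notes name Trim Galore, cutadapt, TopHat and GRCm38. Which tool counted reads, with which annotation and strand setting, is not given in the sources used here. Within a library the linear values are multiples of what 1 read is worth, with no division by gene length, and genes without reads stand at 0.9 read. Read numbers were worked out from these steps: per library, 99.8% to 99.9% of values were whole to within 0.05 read. That share includes the genes without reads, 8421 to 10801 per library, which count as whole by definition. The deposited values stood 0.88 to 0.95 log2 units above RPM computed from the recovered reads on genes, so these reads outnumber what an RPM scale implies and need not be separate fragments.

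Exon lengths came from GENCODE M21 (GRCm38), matched by symbol and position for 98.4% of detected genes, and were the union of a gene's exons. A gene counted as detected with a log2 value of 0 or more in every library, which took 22 to 30 reads. Median-ratio scaling used genes with reads in every library. Pairs were tested with an exact sign-flip permutation test over 16 sign arrangements. Proteins were translated from the GENCODE transcripts and aligned locally with BLOSUM62.

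Named genes were the members, the first 3 and the 3 highest detected genes of each list, and the nearest 3 genes of each member and its nearest listed gene, leaving out numbered gene models, mitochondrial and RNA genes. Marker genes are given as their lists were written. The members, lists and tests were chosen with earlier results of these data known. Of the listed genes, Pxdnl was not matched. Alternatives were other lengths, scalings, detection thresholds and SD limits, and leaving out each library. The scripts were tested on simulated data. Tables were handled with pandas 2.3.3 and numpy 2.4.6, intervals computed with scipy 1.17.1, alignments with Biopython 1.88 and plots with matplotlib 3.10.9, under Python 3.11.15.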

Additional observations from a re-analysis of the deposited data

Results flagged for a closer look

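Of 69 results tested for an outlying library, 1 was found. Col1a1, a main substrate gene of the family, had deposited log2 values of 14.22, 14.14, 13.52 and 14.16 in libraries 1 to 4. The gap between library 3 and the next value was 0.894 of the whole range, above Dixon's critical value for 4 samples at the 95% level. Chance gives such a gap in about 1 of 20 groups. After median-ratio scaling the values were 13.88, 14.03, 13.80 and 14.27.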

How the results depend on the processing

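No paired analysis was possible because the series has 1 group. All 5 members stayed detected under both other scalings, at a log2 threshold of 1, in at least 1 library and without each library. The share of 47.4% of all genes measured belongs to the main rule only, and some of these rules are looser. Library scaling and leaving out a library moved no mean level by more than its SD. Dividing by coding length gave levels of 11.08 for Lox, 8.11 for Loxl1, 3.72 for Loxl2, 8.31 for Loxl3 and 5.17 for Loxl4, and no division gave 11.38, 8.98, 4.94, 9.49 and 6.36, since the divisor changed. The share of Loxl1 was 10.0% by coding length and 12.5% without division, and that of Loxl2 0.461% and 0.749%. Of 70 alternative values for the 10 pairs, 2 reversed, both for Loxl3 minus Loxl1, which ran from -0.12 to 0.16 when a library was left out. That pair was 0.20 by longest transcript or coding length, and 0.51 without division, with 1 sign in 4 of 4 libraries. The number of variable members was 0 at an SD above 1 (5.80% of detected genes) and 4 at an SD above 0.25 (79.0%). On the deposited scale it was 2, 0, 1 and 3 without libraries 1, 2, 3 and 4. The shares of detected genes beside these counts were 27.2%, 43.8%, 34.6% and 46.0%. Likeness between 2 genes cannot change with library scaling, and without a library 0 to 2 of the nearest 3 genes of a member were kept. The exact sign-flip test of pairs cannot pass 0.05 with 4 libraries.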
